A study of Homo sapiens with 10 samples.

Results

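Antimicrobial and exocrine secretion proteins are described here through 10 genes: LYZ, CAMP, DEFB1, LTF, LCN2, SLPI, PI3, WFDC2, PIP and PIGR. They were taken by symbol from the platform annotation, and all 10 were measured, out of 18334 genes on the array. PIGR, SLPI and WFDC2 had 2 spots each and the other 7 genes had 1. RNA came from A549, an established line from a human lung adenocarcinoma that often stands in for type II alveolar cells. It was compared between 5 monolayer cultures (Mono) and 5 cultures from rotating wall vessels (RWV), slowly turning fluid-filled chambers that keep cells suspended under low shear. All cultures had 10% foetal calf serum and 4 mM glutamine, no other agent is named for either group, and the labels call the 5 arrays of a group biological replicates. The growth text names the vessels for every sample, so titles and sources gave the groups, and neither the time in culture nor the cell density is given.

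The mucosal surfaces of the airway, the salivary and tear glands and the breast release a shared set of defence proteins into their fluids. Lysozyme cuts bacterial cell walls, defensins and cathelicidin disrupt microbial membranes, and lactoferrin and lipocalin-2 withhold iron from microbes. SLPI, elafin (PI3) and WFDC2 carry the cysteine-rich whey acidic protein (WAP) fold, and the first 2 of them inhibit neutrophil proteases. The polymeric immunoglobulin receptor (PIGR) carries antibody across the epithelium, and prolactin-induced protein (PIP) is an abundant product of exocrine glands. In the lung most of these proteins are known from submucosal gland and surface secretory cells, and several also from neutrophils.

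RWV cultures had far more PIP and SLPI transcript, more LCN2, and somewhat more CAMP and LYZ, while DEFB1 was lower. Of the 10 genes, 5 rose and 1 fell at a Benjamini-Hochberg adjusted p below 0.05 over all genes (limma, two-sided, 5 against 5 arrays). LTF, PI3, WFDC2 and PIGR did not pass the test. Over all genes 30.1% passed, 15% higher and 15.2% lower in RWV. The median log2 difference was 0.72 over the 10 genes and 0.01 over all genes. The same 6 genes had groups that did not overlap, 5 higher and 1 lower, against 23.1% of all genes (10.9% higher and 12.2% lower). In bulk RNA a change in the share of cells that make a transcript and a change in its level per cell cannot be told apart.

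**Figure D1:**
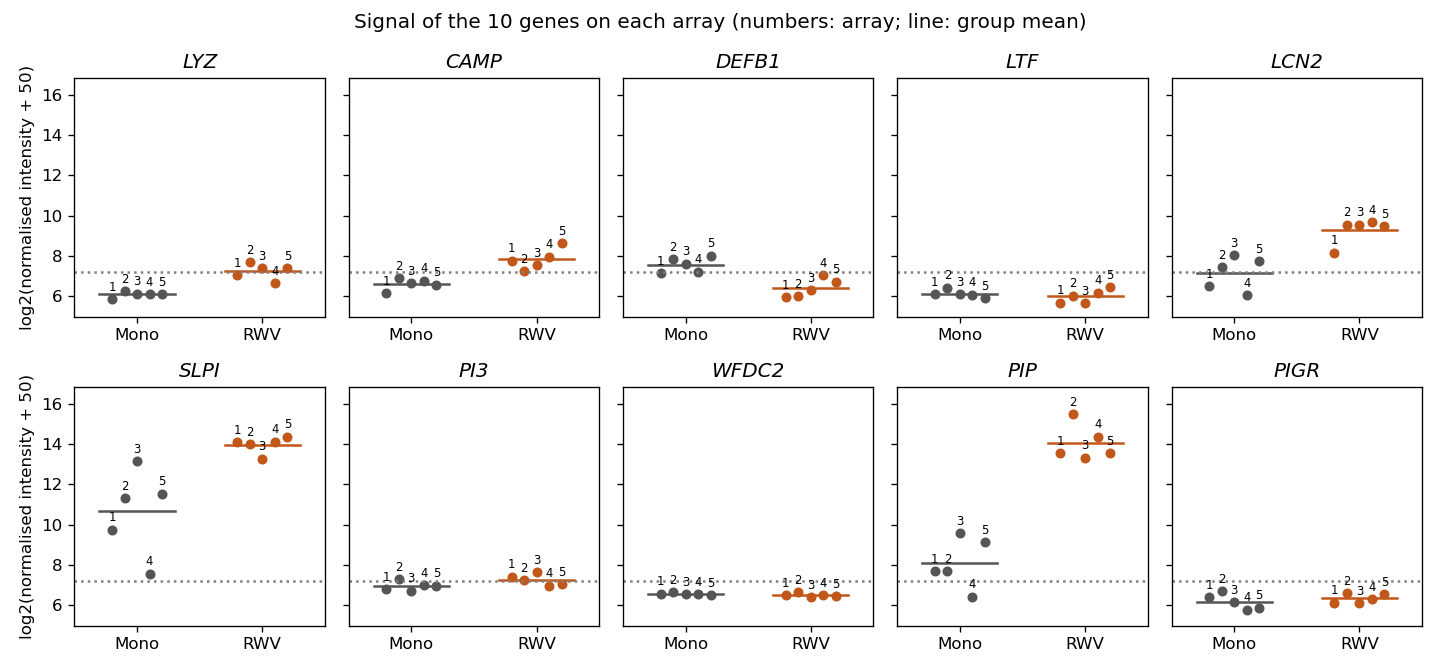
Level of each of the 10 genes on every array, as log2(normalised intensity + 50), with the array number above each point, a line at the group mean and a dotted line at the dim level of 100. PIP and SLPI stand far above the dim level in RWV, LCN2 and CAMP cross it, and LTF and WFDC2 lie below it on all 10 arrays.

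Levels are quantile normalised spot intensities, averaged over the spots of a gene on the log2(intensity + 50) scale, and ± after a log2 difference is its standard error. A gene was called dim on an array when all its spots lay below a normalised intensity of 100, and for a group dim on all 5 arrays only a bound on the fold is given, taken against that level. The fitted differences of genes dim on some or all arrays of a group depend on the constant of 50. Of the 10 genes, 2 were dim on every array. Intensities of different genes depend on their probes and are not set against each other. The deposited median intensity was 122 to 184.5 on Mono and 114 to 138 on RWV arrays. The 5th percentile of intensity lay between 8 and 20 on arrays numbered 1 to 3 of both groups, and between 0 and 4 on arrays 4 and 5, so values within each of these sets are given beside the pooled ones. Of spots at 60000 or above, 5.84% to 8.45% on Mono and 89.3% to 93.1% on RWV arrays lay within 200 of the highest value, 65493, so for such spots readout and culture cannot be told apart. Without normalization between arrays the median difference over all genes was -0.13, and 29.2% of the calls were rises in place of 49.6%. The 6 calls among the 10 genes held under that setting in the same directions.

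PIP, a small glycoprotein of saliva, tears and milk that binds CD4 and bacteria, showed the widest difference of the group. Its normalised intensity in Mono was 157.6 on array 1, 157.6 on array 2, 720.2 on array 3, 35.8 on array 4 and 505.5 on array 5. In RWV it was 11868, 45190, 10116, 20915 and 11832 on arrays 1 to 5. Every RWV array was far above the highest Mono array, and RWV 2 stood highest. The log2 difference was 5.94 ± 0.58 (limma adjusted p = 4.4e-05), a 61.3-fold rise, and 1 gene of the 18334 rose by more. The size depended on the constant added before log2, at 6.27 ± 0.70 with 10 and 5.23 ± 0.47 with 200 (limma adjusted p 0.00024 and 7.4e-05). The rise was 5.78 ± 0.70 within arrays 1 to 3 (limma adjusted p = 0.0077) and 6.18 ± 0.87 within arrays 4 and 5 (limma adjusted p = 0.023). The PIP signal was dim on Mono array 4, and none of its spots was near saturation.

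RefSeq upstream entries of 6 of the 10 genes were searched, and the sequence is shown for PIP and LCN2, which had the largest fitted rises among them. Those of SLPI, PI3, LYZ and DEFB1 were not analysed here. Both windows hold the 250 bases before the transcript start in RefSeq on GRCh38.p14, plus strand, PIP at chr7:143131827-143132076 and LCN2 at chr9:128149203-128149452, with motif matches in capitals.
PIP: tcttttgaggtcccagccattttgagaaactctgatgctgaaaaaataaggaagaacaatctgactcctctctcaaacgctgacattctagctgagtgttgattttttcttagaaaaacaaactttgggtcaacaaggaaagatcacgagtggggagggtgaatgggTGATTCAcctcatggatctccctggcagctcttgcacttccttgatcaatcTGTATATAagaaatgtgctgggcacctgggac
LCN2: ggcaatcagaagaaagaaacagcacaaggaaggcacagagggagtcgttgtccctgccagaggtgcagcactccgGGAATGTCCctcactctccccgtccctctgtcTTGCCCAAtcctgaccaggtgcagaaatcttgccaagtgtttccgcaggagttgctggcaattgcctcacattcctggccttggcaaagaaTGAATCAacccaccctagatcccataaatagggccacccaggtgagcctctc
The motifs searched on both strands were TGANTCA (a loose AP-1 pattern), TTGCNNAA (C/EBP), TATANA (TATA box) and GGANNNTCC. The last is a loose kappaB pattern that takes in the known NF-kB site of the LCN2 promoter. All were chosen after the expression values were seen, the last one also to fit that site. PIP held a TGANTCA match (TGATTCA) 83 to 77 bases before the start and 2 overlapping TATANA matches from 32 to 25 bases before it. LCN2 held a TGANTCA match (TGAATCA) 52 to 46 bases before the start. It also held a C/EBP match 143 to 136 bases before the start and a kappaB match 175 to 167 bases before it. The middle base of both TGANTCA matches is T or A, so neither is the AP-1 consensus TGA(C/G)TCA. Of 35116 upstream windows of the same length, 6.57% held the TGANTCA pattern, 9.05% the C/EBP motif, 17.7% the TATA motif and 7.8% the kappaB pattern. Of the 6 genes with windows, 2 held the TGANTCA pattern. LTF, with 3 start sites, held a C/EBP match at 1 of them, and CAMP held a kappaB match. These matches are descriptions of letters, and no binding was measured.

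SLPI, the secretory leukocyte protease inhibitor of airway and gland fluids, was already clearly expressed in most monolayers and rose further. Its level in Mono was 810.2 on array 1, 2485 on array 2, 8988 on array 3, 140.4 on array 4 and 2901 on array 5. In RWV it was 17167, 16054, 9776, 17736 and 20989 on arrays 1 to 5. The groups did not overlap, but only narrowly, since Mono 3 lay just below RWV 3. The log2 difference was 3.30 ± 0.79 (limma adjusted p = 0.0080), a 9.84-fold rise. Its standard deviation over the 5 Mono arrays was 2.10 on the log2 scale, wider than that of 99.9% of all genes, against 0.41 over the RWV arrays. The estimate rests on which monolayers are counted, being 2.53 ± 0.52 without Mono 4 and 3.92 ± 0.67 without Mono 3 (limma adjusted p 0.0040 and 0.0014). Within arrays 1 to 3 it was 2.37 ± 0.76 and within arrays 4 and 5 it was 4.69 ± 1.21, not past the test in either set (limma adjusted p 0.076 and 0.090). One of its spots had a deposited intensity of 65466 on RWV 5. The other spot was never saturated and gave 3.11 ± 0.73 (limma adjusted p = 0.0072).

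The other WAP proteins did not follow SLPI. PI3 (elafin), an inhibitor of neutrophil elastase, read 61, 106.4, 55.5, 78.3 and 75.4 on Mono arrays 1 to 5 and 122, 100.8, 150, 76.1 and 81.7 on RWV arrays 1 to 5. These groups overlapped, and most values lay around the dim level. The difference was 0.31 ± 0.15, with a 95% interval of -0.02 to 0.64 (limma adjusted p = 0.15). WFDC2, also known as HE4, lay between 41.1 and 50.1 in Mono and between 34.8 and 50.1 in RWV, dim on all 10 arrays. Its difference of -0.07 ± 0.09 did not pass (limma adjusted p = 0.62). While 30.1% of all genes passed the test, 0 of 13 other measured genes with a WAP domain rose and 0 fell. Of these 13, 1 had an unadjusted limma p below 0.05 and 10 were dim in both groups. Among them WFDC9 had the lowest p, at -0.32 ± 0.14 (limma adjusted p = 0.11). The semenogelin genes SEMG1 and SEMG2, which lie between PI3 and SLPI among the genes on the array, were dim throughout and did not pass the test.

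Of the iron-withholding pair, LCN2 rose, while LTF stayed below the dim level on all 10 arrays. LCN2 (lipocalin-2, or NGAL) binds the siderophores with which bacteria collect iron. It read 40.6, 125.3, 216.1, 16.7 and 162.6 on Mono arrays 1 to 5 and 236, 703, 701.1, 763.5 and 664.3 on RWV arrays 1 to 5. All RWV arrays were above all Mono arrays, with RWV 1 only just so, and Mono 1 and 4 were dim. The log2 difference was 2.12 ± 0.40 (limma adjusted p = 0.0018), a 4.36-fold rise. Within arrays 1 to 3 it was 1.75 ± 0.49, and within arrays 4 and 5 it was 2.68 ± 0.54 (limma adjusted p 0.052 and 0.053). LTF (lactoferrin), which binds free iron, lay between 10.3 and 35.9 in Mono and between 0.8 and 37 in RWV, and its difference of -0.13 ± 0.16 did not pass (limma adjusted p = 0.60).

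Of 17 measured lipocalins and iron partners 8 rose, 1 fell and 8 did not pass the test, with a median difference of 0.72 against 0.01 over all genes. That is 47.1% higher and 5.88% lower, beside 15% and 15.2% of all genes. RBP4, the lipocalin that carries retinol, rose by 3.63 ± 0.77 (limma adjusted p = 0.0040), from a mean of 1965 to 24981, although Mono 3 at 12600 lay above RWV 3 at 8037. PTGDS, a lipocalin and prostaglandin D synthase, rose by 2.94 ± 0.50 and stood lowest on RWV 3. LCN12 was dim in Mono and at least 2.38-fold higher in RWV. Outside the naming rule and picked after the values were seen, SLC22A17, a proposed receptor for LCN2, rose by 1.19 ± 0.20 (limma adjusted p = 0.0010). LRP2, another receptor for LCN2 and also outside the rule, was dim on every array and did not pass (limma adjusted p = 0.33). MMP9, which binds LCN2, did not pass either, at -0.27 ± 0.21 (limma adjusted p = 0.40). The 1 gene that fell was the transferrin receptor TFRC, from a mean of 10744 to 5345 (limma adjusted p = 0.013), with RWV 3 at 11413 inside the Mono range.

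Of the direct antimicrobials, cathelicidin rose above the dim level in RWV, lysozyme rose but stayed around that level, and the beta-defensin fell. CAMP encodes the precursor of the membrane-disrupting peptide LL-37. It was dim on every Mono array, at 20.6, 70.2, 51.4, 59.9 and 45.5, and read 167.6, 103.7, 136.5, 199.1 and 349.3 in RWV. All 5 RWV arrays were above the dim level, RWV 5 the most. CAMP was at least 1.78-fold higher (limma adjusted p = 0.0021). Its fitted difference was 1.22 ± 0.23, with 0.95 ± 0.23 within arrays 1 to 3 and 1.62 ± 0.27 within arrays 4 and 5.

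LYZ read 8.7, 26.7, 20.4, 19.3 and 19.6 in Mono and 83.5, 155.9, 118.3, 51.2 and 119.7 in RWV. The groups were apart, but RWV 1 and 4 were dim as well, so the bound is at least 1.01-fold higher (fitted difference 1.14 ± 0.17, limma adjusted p = 0.00049). Within arrays 1 to 3 the difference was 1.29 ± 0.19, and within arrays 4 and 5 it was 0.92 ± 0.28 and not past the test (limma adjusted p = 0.13). DEFB1, a beta-defensin that epithelia make without induction, read 91.4, 178.1, 147.6, 99.9 and 208.8 in Mono and 12.8, 14.4, 28.5, 83.5 and 56.2 in RWV. It was dim on all RWV arrays and on Mono 1 and 4, and all RWV values lay below all Mono values. DEFB1 was at least 1.40-fold lower in RWV (fitted difference -1.16 ± 0.24, limma adjusted p = 0.0031). Within arrays 1 to 3 this was -1.44 ± 0.20, and within arrays 4 and 5 it was -0.73 ± 0.31 and not past the test (limma adjusted p = 0.23).

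Relatives of these antimicrobials were for the most part dim, and a smaller share of them passed the test than the 30.1% of all genes. Of 11 other defensins measured, 0 changed (limma; 1 at an unadjusted p below 0.05) and 10 were dim in both groups. DEFB118 had the lowest p among them (limma adjusted p = 0.11). Of 8 other lysozyme-like genes 0 changed (limma; 1 at an unadjusted p below 0.05), with LYG2 the lowest at a limma adjusted p of 0.10. Among 28 other antimicrobial genes of epithelia 2 rose, 0 fell and 21 were dim in both groups. That is 7.14% of the 28 past the test. ANG, a secreted ribonuclease with antimicrobial activity, rose by 1.88 ± 0.57 (limma adjusted p = 0.026), from 6121, 15649, 25067, 1807 and 17456 in Mono to 28435 or more on each RWV array. DUOX2, an oxidase that supplies hydrogen peroxide at airway surfaces, was dim in Mono and at least 1.49-fold higher (limma adjusted p = 0.031), from 37.6 on RWV 3, which was dim, to 520.6 on RWV 2.

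PIGR, the receptor that carries dimeric immunoglobulin A into secretions, was dim on 4 arrays of each group. It lay between 4.9 and 53.8 in Mono and between 19.3 and 47.1 in RWV, with a difference of 0.16 ± 0.18 (95% interval -0.24 to 0.55, limma adjusted p = 0.58). One of its spots reached 163.4 on Mono 2 and 123.7 on RWV 5, and the other read 31.8 or less on all arrays. Of 10 measured genes for immunoglobulin partners and transcytosis 1 rose and 0 fell, 10% past the test beside 30.1% of all genes. The 1 that rose was FCGRT, a receptor that moves immunoglobulin G across epithelia, at 0.97 ± 0.26 (limma adjusted p = 0.016).

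Of 20 other measured proteins of gland secretions 4 rose and 0 fell, and 11 were dim in both groups. The share that rose, 20%, lies near the 15% of all genes. Of all genes 25.3% were dim in both groups, a smaller share than in this list, so the sets are not alike. ZG16B, a lectin-like salivary protein, rose by 3.17 ± 0.27 (limma adjusted p = 2.7e-05), from between 64.1 and 288.1 in Mono to between 1172 and 2131 in RWV. AZGP1, the zinc-binding glycoprotein that forms a complex with PIP in seminal fluid, was dim on all Mono arrays and at least 8.15-fold higher (limma adjusted p = 3.6e-05). It read 929, 697.1, 349.8, 1301 and 1178 on RWV arrays 1 to 5. SCGB2A1, a secretoglobin of tear and breast secretions, was dim on all Mono arrays and read 102.9 to 194.2 in RWV (limma adjusted p = 2.7e-05). The other gene that rose, DMBT1, a scavenger receptor protein of saliva, lies outside the naming rule and was at least 1.30-fold higher, with 2 RWV arrays dim.

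**Figure D2:**
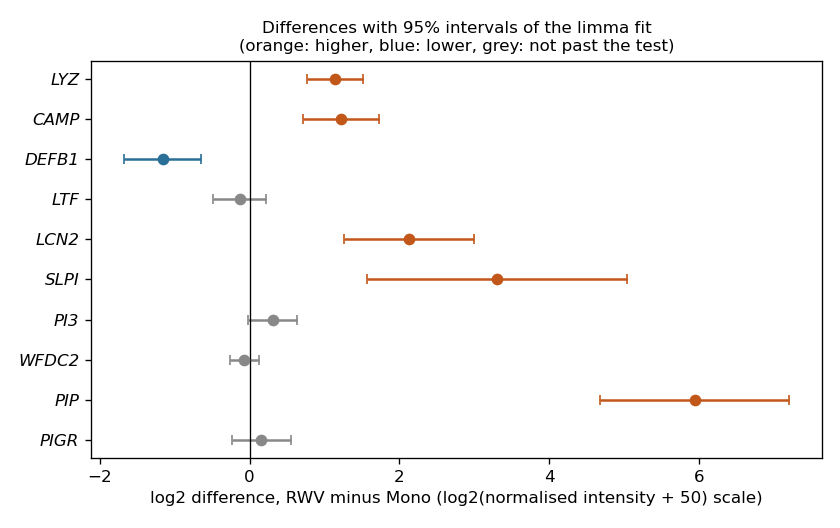
Log2 difference between RWV and Mono for each of the 10 genes with the 95% interval of the limma fit (5 against 5 arrays). PIP at 5.94, SLPI at 3.30 and LCN2 at 2.12 lie to the right, DEFB1 at -1.16 to the left, and the intervals of LTF, PI3, WFDC2 and PIGR include 0.

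Few genes for proteases that these inhibitors act on, that process cathelicidin or that are of the airway surface passed the test. The list also holds TGM2 and GRN, which are not proteases. Of 19 measured genes 1 rose and 0 fell, 5.26% past the test beside 30.1% of all genes. Of the 19, 8 were dim in both groups. CTSL, outside the naming rule, was saturated on 4 Mono and 4 RWV arrays. GRN was saturated on 2 Mono and 5 RWV arrays. In such dim or saturated genes a difference could hardly show. The 1 that rose was the matriptase gene ST14, by 0.41 ± 0.12 (limma adjusted p = 0.019). Among 28 regulators known to act on genes of this group, 8 rose and 1 fell. In all 32.1% of them passed, a share near the 30.1% of all genes. By direction 28.6% were higher and 3.57% lower, beside 15% and 15.2% of all genes. EHF, an epithelial ETS factor, rose by 2.06 ± 0.23 (limma adjusted p = 8.9e-05). SPDEF, the ETS factor of goblet and other secretory cells, rose by 2.02 ± 0.58 (limma adjusted p = 0.020), from 1767, 3459, 4744, 272.9 and 2864 in Mono to between 6956 and 9749 in RWV. NFKBIZ, a co-activator of NF-kB needed for LCN2 induction in mice, rose by 1.27 ± 0.32 (limma adjusted p = 0.011), although RWV 4 at 440.3 lay within the Mono range. The 1 regulator that fell was IL22RA1, a chain of the interleukin-22 receptor, at -0.90 ± 0.12 (limma adjusted p = 0.00029).

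**Figure D3:**
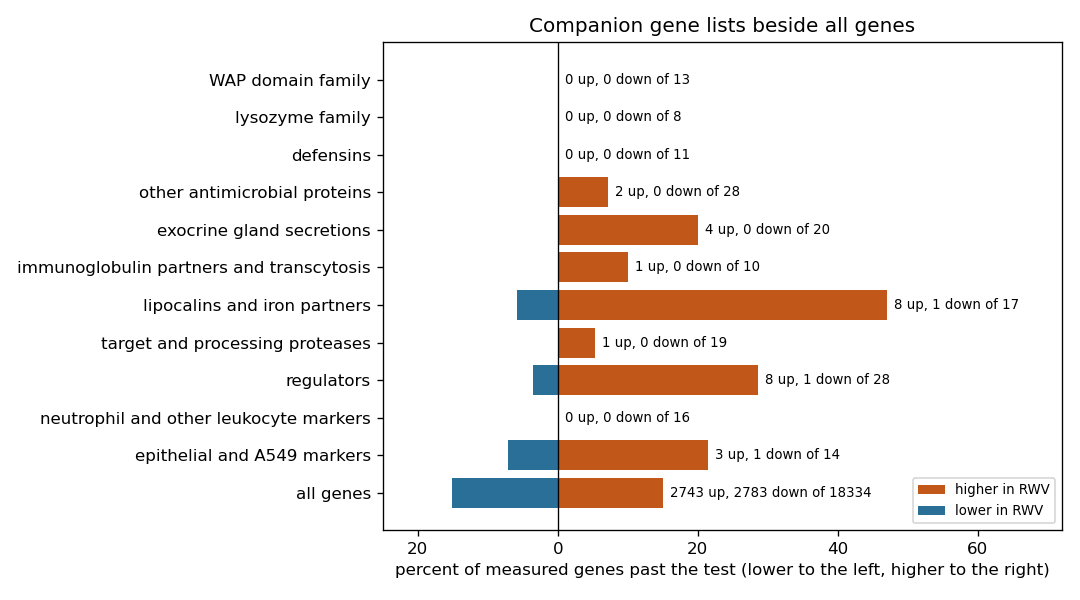
Percent of the measured genes of each companion list that passed the limma test, higher in RWV to the right and lower to the left, with all genes at the bottom. The lipocalin and iron list has 8 of 17 higher, and the WAP, lysozyme, defensin and leukocyte lists have 0 of their genes past the test.

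Neutrophils also make LTF, LCN2, CAMP, SLPI and LYZ. Of 16 markers of neutrophils and other leukocytes 0 rose and 0 fell, beside 30.1% of all genes past the test. Of the 16, 1 had an unadjusted limma p below 0.05, and 11 were dim on all Mono and 10 on all RWV arrays. Dim in both groups were MPO, CTSG, DEFA4, OLFM4, CEACAM8, MMP8, FCGR3B, CSF3R and LAPTM5. The neutrophil elastase gene ELANE was dim on all Mono and on 2 RWV arrays. The summed intensity of the 16 genes was 1569 to 2464 in Mono and 1999 to 2960 in RWV, ranges that overlap. Most of that sum came from 1 spot of the B cell gene CD79A, which was dim on no array (means 1450 and 1699). Without it the sum of the other 15 genes was 550 to 740 in Mono and 598 to 993 in RWV. PRTN3 had the lowest p, at 0.54 ± 0.21 (limma adjusted p = 0.070). The A549 and epithelial markers KRT8, KRT18, AKR1B10, AKR1C1 and ALDH1A1 were bright in both groups and did not pass the test, but AKR1B10 and ALDH1A1 were saturated on all 10 arrays. KRT18 and AKR1C1 had a saturated spot on all 10 arrays and KRT8 on 8, so their differences rest partly on saturated spots. EPCAM at -0.84 ± 0.37 and CDH1 at 0.62 ± 0.37 had no saturated spot and did not pass (limma adjusted p 0.11 and 0.25). Both varied among the monolayers, EPCAM from 395.8 to 1814.6 and CDH1 from 1018.2 to 4988.5. KRT7 fell by 1.70 ± 0.21, KRT19 rose by 1.55 ± 0.36 (saturated on 2 RWV arrays) and ALDH3A1 rose by 0.85 ± 0.25 (limma adjusted p 0.00014, 0.0062 and 0.024). The list of 14 such markers had 3 genes higher and 1 lower (limma; 5 at an unadjusted p below 0.05). That is 28.6% past the test beside 30.1% of all genes. The remaining rise was NAPSA, a type II cell protease, at 0.45 ± 0.13 (limma adjusted p = 0.018). Of the other type II markers, SFTPB was dim on all arrays, and SFTPC was dim on none, with means of 167.3 in Mono and 139.5 in RWV. NKX2-1, averaged over 3 spots, read 31.3, 36.2, 37.5, 47.4 and 382.2 on Mono arrays 1 to 5. In RWV it read 25 to 49.6 and was dim on 3 of 5 arrays. Only Mono 5 stood out, and the NKX2-1 difference did not pass (limma adjusted p = 0.37).

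PIP, SLPI and LCN2 varied together among the monolayers. All 3 were lowest on Mono 4, next on Mono 1, then Mono 2 and Mono 5, and highest on Mono 3, with Mono 1 and 2 equal for PIP. None of the other 7 genes had this order. It was shared by 3.39% of all genes, by 12.4% of the genes that rose in RWV and by 0.395% of those that fell. The standard deviations over the Mono arrays were 1.26 for PIP and 0.85 for LCN2 on the log2 scale, above those of 99.4% and 98.2% of all genes. ANG, RBP4 and EHF had the same order as well, with Mono 4 at 1807, 375.4 and 37.6 and Mono 3 at 25067, 12600 and 189.9. The first principal component of all genes, with 64% of the variance, also put the Mono arrays in this order, at -73 for Mono 4, -55.7 for Mono 1, -37.4 for Mono 2, -34.5 for Mono 5 and -21.5 for Mono 3. The RWV arrays lay between 20.4 (RWV 3) and 54.6 (RWV 1) on it, and PIP and SLPI were lowest on RWV 3 among the RWV arrays. LCN2 did not share this, being lowest on RWV 1 at 236 and at 701.1 on RWV 3. The order was seen in these values and then counted, so the counts are a description.

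**Figure D4:**
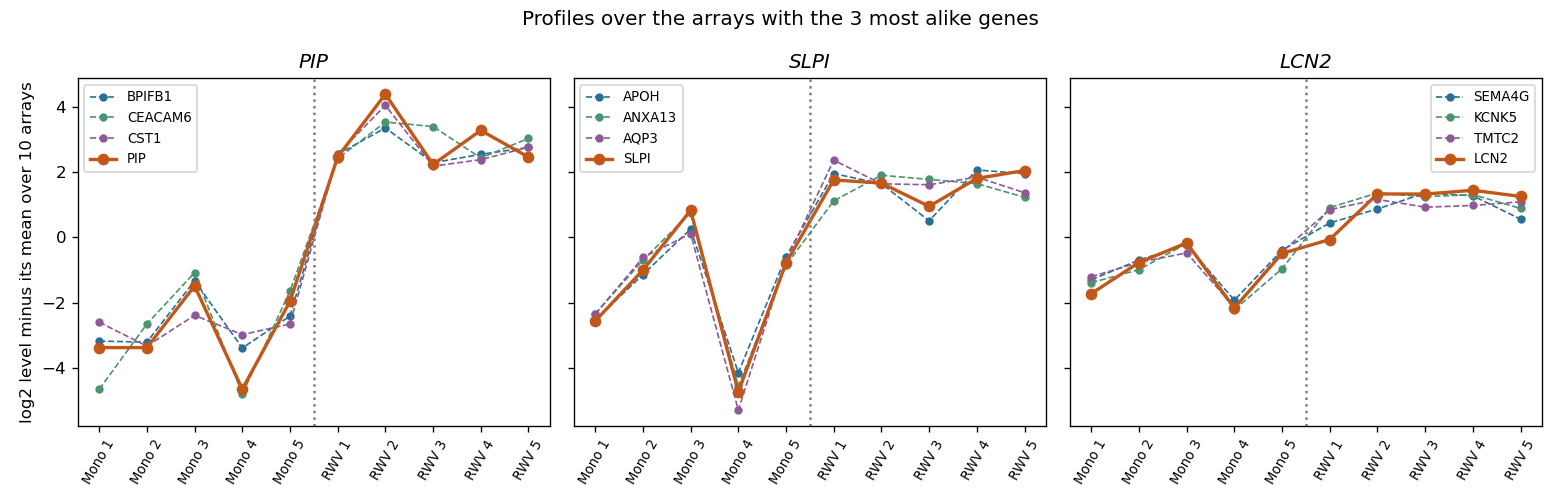
Log2 level of PIP, SLPI and LCN2 on each array, less its mean over the 10 arrays, with the 3 genes whose profiles are nearest to each. In all 3 panels Mono 4 is the lowest array or close to it and Mono 3 is high among the monolayers, and the RWV arrays lie above the Mono arrays.

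The genes nearest to each profile were found by the root mean square difference between centred log2 levels over the 10 arrays. For PIP these were BPIFB1 at 0.60, CEACAM6 at 0.75 and CST1 at 0.76. BPIFB1 is an airway secretory protein, CEACAM6 a cell surface glycoprotein and CST1 a salivary cystatin, and the last 2 have near-identical relatives, so their separate levels are uncertain. For SLPI they were APOH at 0.32, ANXA13 at 0.45 and AQP3 at 0.48. APOH is a plasma phospholipid-binding protein, ANXA13 an epithelial annexin and AQP3 a water and glycerol channel. APOH read 404.1 on Mono 4 and 9563 on Mono 3, and AQP3 read 154.4 and 8619 there. For LCN2 they were SEMA4G at 0.35, KCNK5 at 0.39 and TMTC2 at 0.40. KCNK5, a potassium channel, rose by 2.29 ± 0.30 (limma adjusted p = 0.00019).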

How the data were processed

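The authors deposited linear spot intensities, 45220 whole numbers for each array, and their medians differ between arrays. Cy3 labelling used an Agilent kit, per the labels' protocols; the scanner and any background step were not given in the sources used here. Of these spots 31332 had 1 gene symbol in the platform annotation, and symbols were checked by gene number against RefSeq genes of GRCh38.p14 (31291 matched, 0 changed). Arrays were quantile normalised with limma 3.58.1 (R 4.3.3, data.table version 1.17.8), values below 0 were set to 0, 50 was added and log2 taken. Spots were averaged per gene, and groups were compared with lmFit and eBayes on all 18334 genes, two-sided, with Benjamini-Hochberg adjustment and a threshold of 0.05. Adding 50 understates the folds of dim genes. Bounds are the back-transformed mean of the brighter group over the dim level. Alternatives were other scalings, added constants, spot rules, array sets, an array set term and a replicate block. Others were a changed eBayes prior (trend and robust), leaving out genes dim in both groups and leaving out each array. The fit was tested on simulated data. The number of arrays limits precision, and spot flags were not used.

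The members, the gene lists, the dim level of 100 and the saturation level of 60000 were chosen with earlier results of these data known. Named beside the 10 genes were up to 3 genes per list past the test with the largest change and not dim in both groups (otherwise the lowest p), genes of the 2 marker lists, and the 3 nearest profiles to the 3 members with the largest change. Python 3.11.15 with pandas 2.3.3 and matplotlib 3.10.9 searched the upstream windows and made the plots.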

Additional observations from a re-analysis of the deposited data

Results flagged for a closer look

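Among the 39 named genes, 6 of 78 groups of 5 arrays held an array far from the others by Dixon's ratio of gap to range, where chance gives about 1 in 20. LCN2 on RWV 1 read 236 where the next RWV array read 664.3 (ratio 0.876). AZGP1 on Mono 3 read 88.3 against 51.3 next to it (ratio 0.745), both dim. RWV 3 was the low array for FCGRT (8183 against 15120, ratio 0.721), for PTGDS (566.5 against 3058, ratio 0.759) and for APOH (11400 against 25150, ratio 0.731). NFKBIZ on RWV 4 read 440.3 against 1112 (ratio 0.791).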

How the results depend on the processing

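Over 224 refits of the 10 genes under the alternatives, 216 kept direction and side of the threshold, 6 kept direction but were no longer past it, and 2 turned direction. Both turns were in genes that had not passed, LTF at 0.31 within arrays 4 and 5 and PIGR at -0.14 within arrays 1 to 3. All 6 losses were within one of these sets, which hold fewer arrays. Some refits could not move the difference, only its standard error or adjusted p. These were the replicate block, the array set term, the changed eBayes prior and leaving out genes dim in both groups. For genes with 1 spot the spot rules could not move it either, and leaving out saturated spots moved SLPI alone. Genes that had not passed count as kept when they again did not pass, so the 216 overstates how far the results were put to the test. Within arrays 1 to 3 there were 3 members higher and 1 lower (limma, 6 higher and 2 lower at an unadjusted p below 0.05). Within arrays 4 and 5 there were 2 higher and 0 lower (limma, 6 higher and 0 lower at an unadjusted p below 0.05). All genes past the test numbered 5526, against 3555 without normalization between arrays, 3017 within arrays 1 to 3 and 1052 within arrays 4 and 5. Leaving out each array in turn gave 4449 to 5632 genes, with 5 to 5 members higher and 1 to 1 lower. With the replicate number as a block 5423 genes passed, again with 5 members higher and 1 lower. Deviations of same-numbered arrays correlated over genes at -0.15 to 0.22, so that the numbers were not taken to pair the cultures, and 2 of 5 Mono arrays correlated best with their own number. The size of the differences of genes that were dim in a group or on some of its arrays depended on the constant added before log2. With 10 and with 200 in place of 50, PIP was at 6.27 and 5.23, CAMP was at 1.71 and 0.62, LYZ at 1.95 and 0.47, DEFB1 at -1.82 and -0.53 and LCN2 at 2.63 and 1.37, all past the test. Low signal over background limits what can be said of LTF, WFDC2, PIGR and PI3.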

Other observations

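Genes beside the 10 on their chromosomes, 3 measured genes on each side by RefSeq order, were looked at after the values of the 10 were seen. Of 58 such genes 16 passed the test, 27.6%, which lies near the 30.1% of all genes. Around SLPI, the 6 neighbours PI3, SEMG1, SEMG2, MATN4, RBPJL and SDC4 included 0 past the test (limma), the largest at -0.38 ± 0.17 for MATN4. Around PIP, 4 of 6 neighbours, among them 2 bitter taste receptor genes, were dim in both groups, and 1 rose, the glutathione transferase GSTK1 by 0.58 ± 0.13. Around LCN2, BBLN rose by 0.67 ± 0.15 and PTGES2, a prostaglandin E synthase, fell by 0.66 ± 0.15. Around LYZ, 4 of 6 passed, 1 higher and 3 lower, and the one that rose was CPM, a membrane carboxypeptidase of lung epithelium, at 2.09 ± 0.27 (limma adjusted p = 0.00020).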
